A study of Homo sapiens with 2 samples.

Results

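The genes described here are the nuclear genes for mitochondrial respiratory complexes II to V, measured in polyadenylated RNA of BE(2)-C neuroblastoma cells. They are the gene lines of the deposited table whose symbol begins with COX and a digit, UQC, ATP5 or SDHA to SDHD, together with CYC1 and CYCS. The pattern matched 67 lines, and 5 pseudogene or antisense lines (COX10-AS1, COX6A1P2, SDHAP1, SDHAP3 and UQCRFS1P1) were left out, so that 62 members remained of 16005 gene lines. All 62 members are annotated as protein coding and all 62 had a p-value. Complex II accounts for 8 of them, complex III for 13, complex IV for 20 and complex V for 19, and the other two are CYCS, the electron carrier cytochrome c, and COX7A2L, a factor that holds complexes III and IV together. By function, 42 are structural subunits and 16 are assembly factors. Of the complex IV subunit genes usually limited to a few tissues, COX4I2 is a member. None of the 67 lines carried the name COX6A2, COX6B2, COX7A1, COX7B2 or COX8C.

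BE(2)-C is an established clonal human neuroblastoma line that carries amplified MYCN. Wild-type cells were kept for 7 days in EMEM/F12, a conventional culture medium, or in HPLM, a medium formulated to resemble the metabolite content of human plasma, and both media held 10% serum (FBS) and 1% P/S. The comparison therefore addresses how the change of medium alters transcript levels in 1 cell line. The labels list 1 sample per medium and the table holds 3 numbered libraries for each, and no label says whether those came from separate cultures. Each p-value here is therefore set by library-to-library spread alone, and that spread may be technical.

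The nuclear genome encodes all of complex II (succinate dehydrogenase) and most subunits of complex III (the cytochrome bc1 complex), complex IV (cytochrome c oxidase) and complex V (the ATP synthase). Complex II passes electrons from succinate to ubiquinone, complex III passes them on to cytochrome c, complex IV reduces oxygen, and the ATP synthase uses the proton gradient to make ATP. Transcription factors such as NRF1, the ETS factor GABPA, YY1 and the MYC family are known to bind the promoters of many of these genes, with PPARGC1A as a coactivator.

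Values are normalised reads, that is, reads divided by a factor per library, and a change is the log2 ratio of the HPLM mean over the EMEM/F12 mean, with its standard error (SE) from the 3 libraries per medium. "Rose" and "fell" are used only of genes with an adjusted p under 0.05 in the authors' deposited table. The libraries held 17504237 to 21676080 reads, and a count of 0 allows up to 3 reads, or 2.68 to 3.49 normalised reads. All 10 sympathetic neuroblastoma markers were in the table, with a summed level of 201158 to 235973 in EMEM/F12 and 175599 to 182786 in HPLM. Of these 10, 8 fell and 2 rose, with a median log2 fold change of -0.58 in the authors' deposited table; DBH fell by 1.14 and TH by 0.74 on the log2 scale, and CHGA, with the largest level, rose. The 8 fibroblast markers summed to 38031 to 87171 in EMEM/F12 and to 66912 to 74651 in HPLM, and library 3 of EMEM/F12 stood apart: its COL1A1 level was 53750, against 21276 and 22731 in libraries 1 and 2. COL1A2, COL3A1, DCN and PDGFRA were also highest in that library, but PDGFRB, at 6124 against 6625 and 6704, LUM and FBLN1 were not. Between the media LUM (-0.98), PDGFRB (-1.48) and FBLN1 (-0.87) fell and the other 5 did not pass, which the sum, mostly COL1A1, does not show. Of 6 Schwann and glial markers, 3 were in the table, with sums of 84.5 to 115 and 219.5 to 237. Of 6 blood markers, only CD14 was in the table, at 58.1 to 74.4 and 43.8 to 66.5. The part of these marker levels in the results below was not tested. In bulk RNA, fewer cells of a type and less RNA per cell cannot be told apart.

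Most structural subunits of complexes II to V had lower transcript levels in HPLM, and their assembly factors did not share one direction. Of the 62 members, 33 fell (53.2%), 7 rose (11.3%) and 22 did not pass, where 28.8% of all genes tested fell, 26.8% rose and 55.6% changed in either direction. Over the 11055 genes whose mean was 100 or more, a set that holds 61 of the members, 35.5% fell, 32.4% rose and 67.8% changed, against 64.5% of the members. The median log2 fold change in the authors' deposited table was -0.19 over the members and 0.01 over all genes tested, or -0.01 over genes with a mean of at least 100. Among the structural subunits 30 of 42 fell and 2 rose, with a median of -0.27 in the authors' deposited table. Among the assembly factors 3 of 16 fell and 4 rose, with a median of -0.04 in the authors' deposited table. All 3 HPLM libraries lay below all 3 EMEM/F12 libraries for 38 members, a pattern found in 35% of all genes, and above them for 9 members, against 33.6% of all genes. For the other 15 members the libraries of the media overlapped.

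The changes were small in size. Only 4 called members had an absolute log2 fold change of at least 0.5 in the authors' deposited table, and all 4 fell: COX4I2, SDHA, UQCRHL and ATP5MC3. With the same limit 16.2% of all genes tested fell and 14.5% rose. Among the 11055 genes with a mean of at least 100, SDHA stood at percentile 10.2 of the change counted from the lowest, and COX10, the member that rose most, at percentile 83.8. Without library 3 of EMEM/F12, 37 members fell, 5 rose and the median was -0.19, while 30.4% of all genes fell and 29.4% rose. Without library 1 of HPLM the number that rose was 4, the lowest of the 6 fits that each left out 1 library, while 23.6% of all genes rose. Of the 40 calls, 31 (27 that fell and 4 that rose) held under each of the 17 other settings in which they were tested, apart from the added limit of 0.5 on the size of the change. COX4I2, one of the 31, was not tested where a mean of at least 100 was required. The 9 that did not were UQCRQ, COX7B, COX14, COX18, COX19, COX20, ATP5PB, ATP5PD and ATP5PF.

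**Figure D1:**
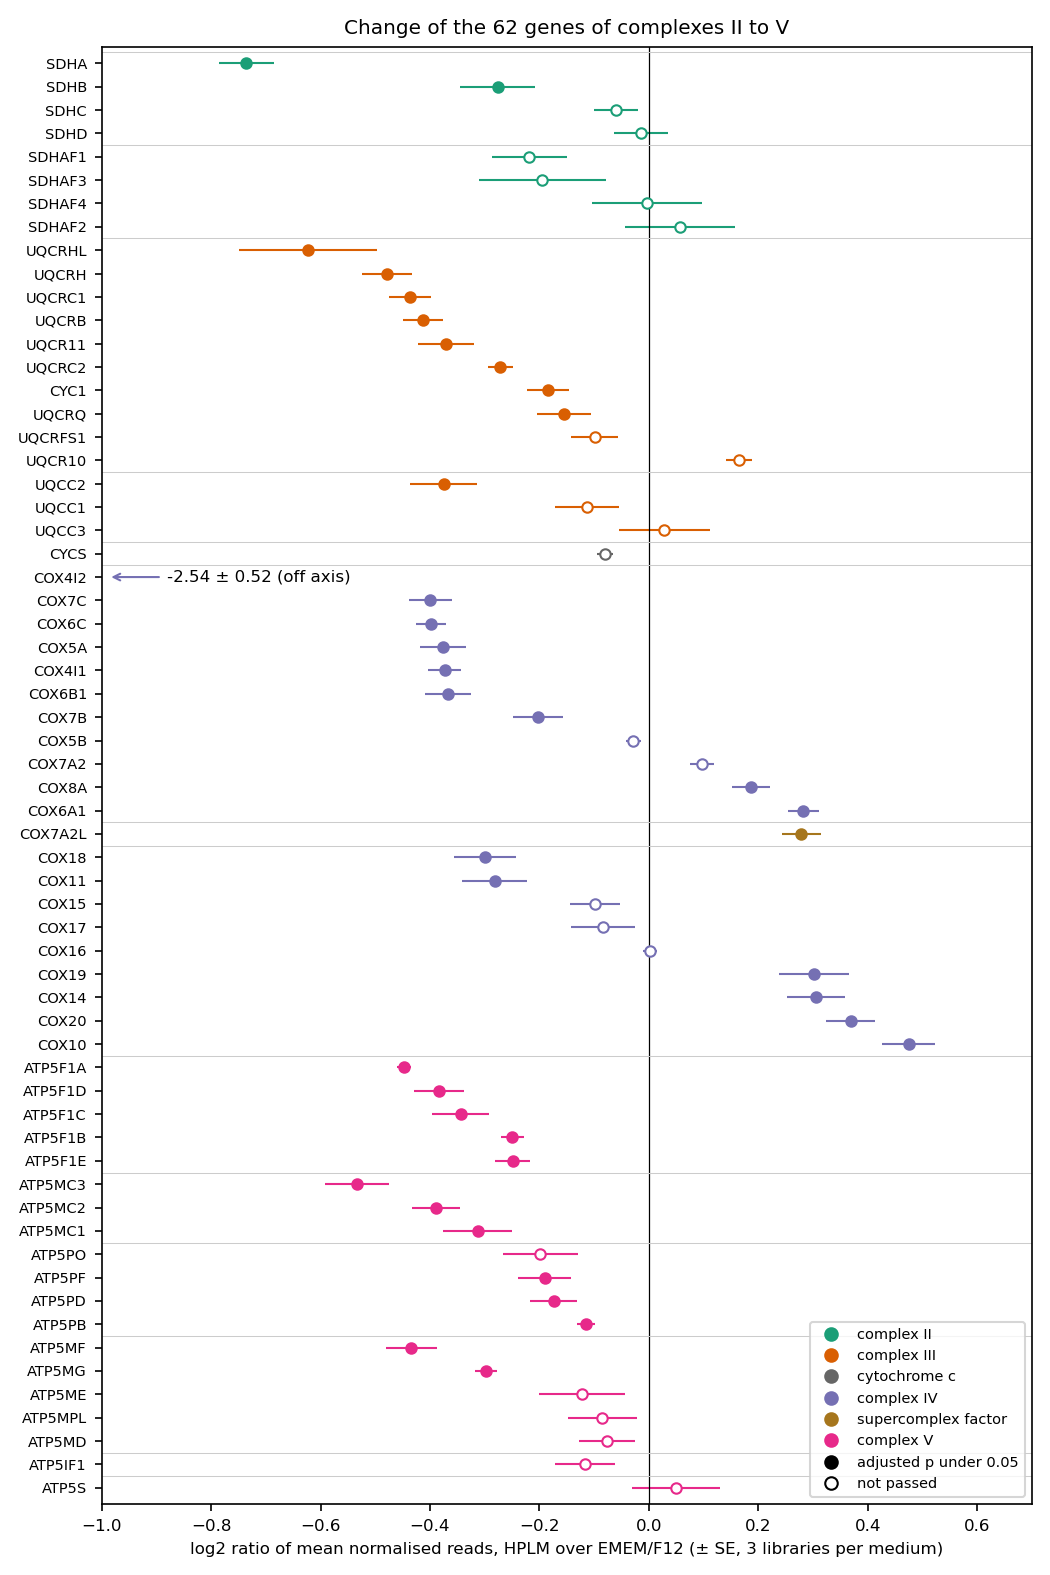
Log2 ratio of mean normalised reads, HPLM over EMEM/F12, on the x axis for each of the 62 members (rows, grouped by complex and role), with bars of ± SE from 3 libraries per medium and filled points for an adjusted p under 0.05 in the authors' deposited table. Structural subunits of complexes III and V lie mostly to the left of 0, COX6A1, COX8A, COX7A2L and 4 complex IV assembly factors lie to its right, and COX4I2, at -2.54 ± 0.52, is off the axis.

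**Figure D2:**
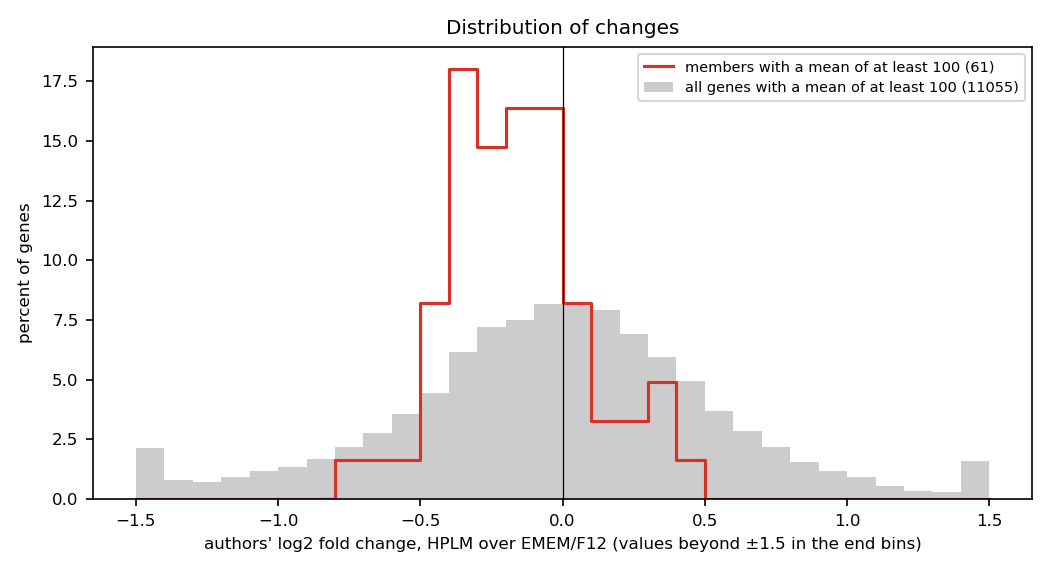
Distribution of the authors' log2 fold changes in bins of 0.1, as a percent of genes on the y axis, for 61 members (line) and all 11055 genes (grey bars) with a mean of at least 100 normalised reads. The members lie between -0.74 and 0.48, mostly between -0.5 and 0, while values of all genes reach beyond ±1.5, which is where the end bins collect them.

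Promoter windows were taken from RefSeq on GRCh38.p14, from 250 bases before to 50 bases after a gene's start, and 49 of the 62 members matched one. All 7 members that rose had a window. The 13 members without one included ATP5F1B, ATP5MC3 and COX4I2, which fell, so the 49 are not an even sample of the calls. Of these 49, 16 (32.7%) held the NRF1 motif, searched as GCGCA and GCGC with any 1 base between them, against 11.3% of the windows of 11514 measured genes and 6.28% of all 27305 windows. The ETS motif CCGGAAG was found in 20 members (40.8%), against 18.4% of measured genes and 10.7% of all. The YY1 motif AANATGGCG was found in 10 members (20.4%), against 6.55% and 3.37%. The E-box CACGTG, the site type of MYC and MYCN, was found in 5 members (10.2%), against 10.1% and 7.43%. Both strands were searched, and matches of different motifs could overlap. Of the 16 members with the NRF1 motif 6 fell, none rose and 10 did not pass, with a median log2 ratio of -0.16, and of the 33 without it 17 fell, 7 rose and 9 did not pass, with a median of -0.15. Of the 20 members with the ETS motif 9 fell, 3 rose and 8 did not pass. For YY1 these numbers were 4, 2 and 4 of 10, and for the E-box 3, 1 and 1 of 5. Over all genes with a mean of at least 100, 35.5% fell and 32.4% rose. A match describes letters in this window only.

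**Figure D3:**
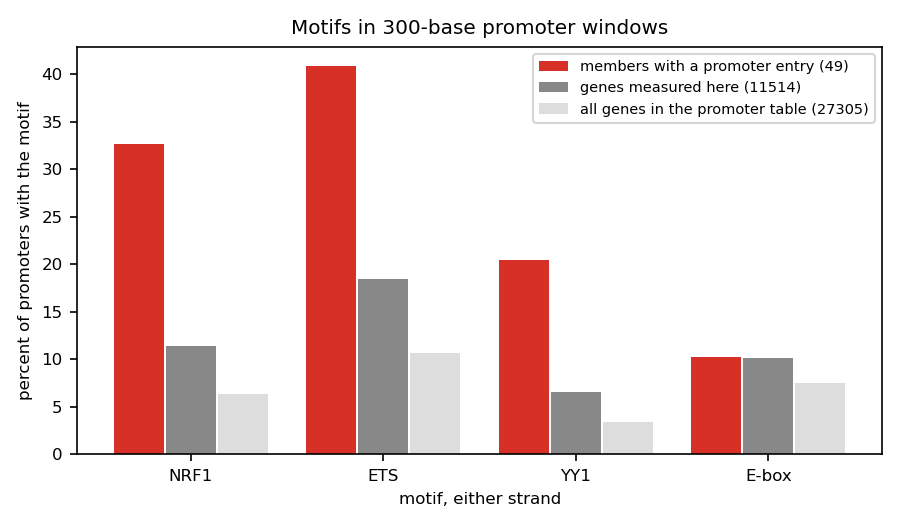
Percent of promoter windows (y axis) with each motif on either strand (x axis) for 49 members, 11514 measured genes and all 27305 genes of the promoter table. The members' bars stand at 32.7%, 40.8% and 20.4% for NRF1, ETS and YY1, above both other sets, and at 10.2% for the E-box, beside 10.1% of measured genes.

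The 250 bases before the RefSeq start are shown for the well-counted member that fell most, SDHA, for the member that rose most, COX10, and for the structural subunit that rose most, COX6A1, as examples from each side of the response. All 3 lie on the plus strand, at chr5:218070-218319, chr17:14069254-14069503 and chr12:120437863-120438112 of GRCh38.p14. Letters in capitals mark the motifs, which are NRF1 in SDHA and ETS in COX10 and COX6A1.
SDHA: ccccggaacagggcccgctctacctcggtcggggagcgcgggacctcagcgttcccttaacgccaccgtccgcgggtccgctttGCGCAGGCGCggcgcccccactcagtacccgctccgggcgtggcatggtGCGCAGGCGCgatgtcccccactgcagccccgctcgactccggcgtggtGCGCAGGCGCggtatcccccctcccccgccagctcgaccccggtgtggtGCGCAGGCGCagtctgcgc
COX10: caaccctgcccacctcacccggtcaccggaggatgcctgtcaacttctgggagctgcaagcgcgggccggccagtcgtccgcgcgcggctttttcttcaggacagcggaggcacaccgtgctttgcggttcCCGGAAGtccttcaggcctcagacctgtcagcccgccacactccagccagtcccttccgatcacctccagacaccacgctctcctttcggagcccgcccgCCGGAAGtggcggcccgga
COX6A1: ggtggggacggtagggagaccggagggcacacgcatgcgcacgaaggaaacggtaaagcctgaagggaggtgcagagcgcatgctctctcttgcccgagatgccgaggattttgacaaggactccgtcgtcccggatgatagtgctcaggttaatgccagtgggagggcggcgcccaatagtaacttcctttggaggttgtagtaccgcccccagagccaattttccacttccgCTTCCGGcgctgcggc
In SDHA the NRF1 motif stood 4 times, with its first base 166, 117, 68 and 19 bases before the start. COX10 had the ETS motif 119 and 19 bases before the start, and COX6A1 had it once, 16 bases before the start and on the opposite strand. The windows of COX10 and COX6A1 each held 1 YY1 match as well, which lay in or reached into the 50 bases after the start and is not shown. These distances hold for the RefSeq start only. The GENCODE release 29 starts of SDHA (218241), COX10 (14069496) and COX6A1 (120438090) lie inside the 250 bases shown.

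The subunits of complex II differed from each other in their change. SDHA fell by 39.9%, SDHB fell by 17.4%, and SDHC and SDHD did not pass. SDHA (ENSG00000073578, chromosome 5, 218241 to 256700 on GRCh38) encodes the flavoprotein that oxidises succinate. It had 4968, 4957 and 4522 normalised reads in EMEM/F12 and 2867, 2820 and 2990 in HPLM, a log2 ratio of -0.74 ± 0.05, with an adjusted p of 1.74e-45 in the authors' deposited table. Every HPLM library lay far below every EMEM/F12 library. SDHB, the iron-sulfur subunit, had 667, 659 and 716 reads in EMEM/F12 and 584, 517 and 584 in HPLM (-0.28 ± 0.07), and its libraries did not overlap either. SDHC and SDHD anchor the enzyme in the inner membrane. For SDHC the values were 1627, 1763 and 1629 in EMEM/F12 and 1614, 1623 and 1577 in HPLM (-0.06 ± 0.04), so that the media were separated by a narrow gap only. For SDHD they were 593, 610 and 617 in EMEM/F12 and 570, 596 and 636 in HPLM, with overlapping libraries and a log2 ratio of -0.01 ± 0.05.

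The ratio of SDHA to its partners therefore differed between media in every library. SDHA reads were 305%, 281% and 278% of SDHC reads in EMEM/F12 and 178%, 174% and 190% in HPLM. Against SDHD the values were 838%, 812% and 733% and then 503%, 473% and 470%. Gene lengths cancel within such a comparison of 1 ratio across media, but the ratio itself is not one of transcript numbers. None of the 4 assembly factors passed: SDHAF1 and SDHAF3 had log2 ratios of -0.22 ± 0.07 and -0.19 ± 0.12, SDHAF2 had 0.06 ± 0.10, and SDHAF4 had 107, 108 and 92.3 reads in EMEM/F12 and 111, 93.9 and 102 in HPLM. SDHA has near-identical pseudogene copies, and reads can be split between them. SDHAP1 fell from 292 ± 12.8 to 195 ± 13.3 normalised reads (SD, n = 3 libraries) and SDHAP3 fell from 159 ± 7.89 to 111 ± 3.72. Their level was 6.06% and 3.31% of SDHA in EMEM/F12 and 6.75% and 3.83% in HPLM.

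In complex III, 8 of 10 structural subunits fell (80%) and none rose, with a median log2 fold change of -0.32 in the authors' deposited table. Over all genes with a mean of at least 100, 35.5% fell and 32.4% rose. UQCRC1 and UQCRC2 are the core proteins on the matrix side. UQCRC1 had 2702, 2549 and 2751 normalised reads in EMEM/F12 and 2023, 1963 and 1927 in HPLM (log2 ratio -0.44 ± 0.04, with an adjusted p of 2.72e-15 in the authors' deposited table). UQCRC2 had 3804, 3654 and 3653 reads and then 3092, 3090 and 3026 (-0.27 ± 0.02). In both genes the 3 HPLM libraries lay below the EMEM/F12 libraries with a wide gap. CYC1, the cytochrome c1 subunit that hands electrons to cytochrome c, had 2553, 2542 and 2558 reads in EMEM/F12 and 2364, 2170 and 2205 in HPLM (-0.18 ± 0.04). The EMEM/F12 libraries of CYC1 were close together and the HPLM libraries were all lower. UQCRH, the hinge protein between cytochromes c1 and c, had 2366, 2268 and 2166 reads and then 1574, 1630 and 1678 (-0.48 ± 0.05), the largest fall among the complex III members with over 1000 reads.

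UQCRHL is an intronless copy of UQCRH on chromosome 1 (15807169 to 15809348). It had 137, 157 and 118 normalised reads in EMEM/F12 and 84.6, 88.4 and 94.8 in HPLM, a log2 ratio of -0.62 ± 0.13. Its level was 5.46% to 6.92% of UQCRH in EMEM/F12 and 5.37% to 5.65% in HPLM, so the libraries of the media overlapped in that share, and reads of the near-identical copies may have been split between them. UQCRB (-0.41 ± 0.04), UQCR11 (-0.37 ± 0.05) and UQCRQ (-0.15 ± 0.05), small supernumerary subunits, also fell. UQCRQ, with an adjusted p of 0.0434 in the authors' deposited table, did not pass when library 1 of EMEM/F12 (-0.13) or library 1 (-0.18), 2 (-0.12) or 3 (-0.17) of HPLM was left out. UQCRFS1, the Rieske iron-sulfur protein, was at -0.10 ± 0.04 and did not pass, and its libraries overlapped. UQCR10 differed from the rest in sign, with 687, 675 and 660 reads in EMEM/F12 and 762, 738 and 767 in HPLM (0.16 ± 0.02, adjusted p 0.0627 in the authors' deposited table), and passed in the edgeR fit on recovered reads (0.19). Among the assembly factors, UQCC2, which is needed for cytochrome b synthesis, had 646, 587 and 609 reads and then 494, 445 and 482 (-0.37 ± 0.06) and fell. UQCC1 (-0.11 ± 0.06) and UQCC3 (0.03 ± 0.08) did not pass.

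CYCS, cytochrome c itself, had 5240, 5242 and 5143 normalised reads in EMEM/F12 and 4982, 4948 and 4846 in HPLM. The libraries did not overlap, but the log2 ratio was only -0.08 ± 0.02 and did not pass, with an adjusted p of 0.0837 in the authors' deposited table. CYCS has 40 named pseudogenes in the annotation, more than any other member. Without library 3 of EMEM/F12 CYCS passed, at -0.09.

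**Figure D4:**
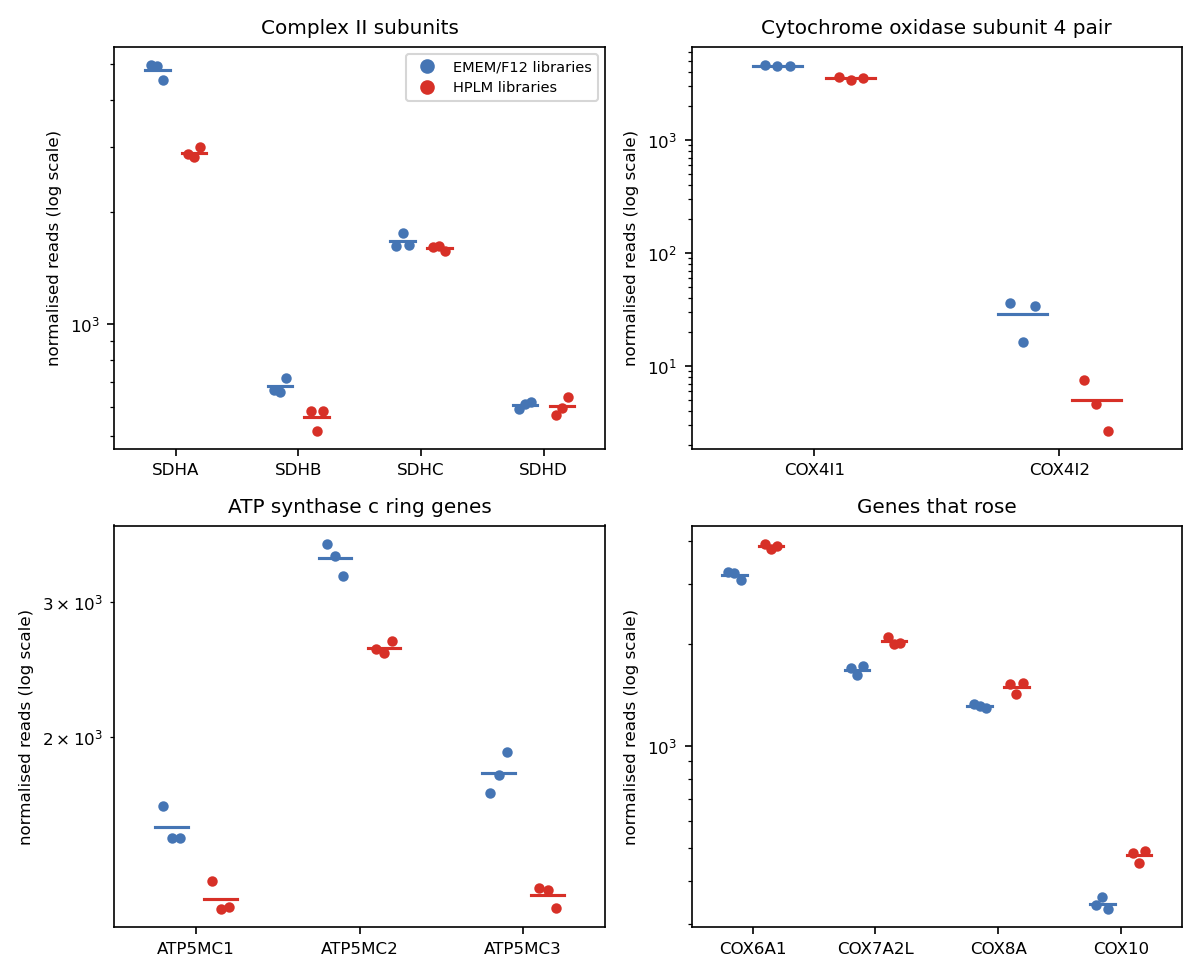
Normalised reads (y axis, log scale, 1 point per library, line at the mean) in EMEM/F12 and HPLM for the complex II subunits, the cytochrome oxidase subunit 4 pair, the ATP synthase c ring genes and 4 genes that rose. SDHA falls from 4522 to 4968 reads to 2820 to 2990 while SDHC and SDHD, which did not pass, lie at 1577 to 1763 and at 570 to 636 over both media, and COX4I2 lies far below COX4I1 in both media.

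Complex IV members changed in both directions. Of 11 structural subunits 7 fell (63.6%) and 2 rose (18.2%), with a median log2 fold change of -0.37 in the authors' deposited table. Of 9 assembly factors 4 rose (44.4%) and 2 fell (22.2%). Over all genes with a mean of at least 100, 35.5% fell and 32.4% rose, and 9 genes are too few to set apart from those shares. The regulatory subunit 4 exists as a common form, COX4I1, and a form known for its rise in low oxygen, COX4I2. COX4I1 had 4614, 4564 and 4538 normalised reads in EMEM/F12 and 3654, 3406 and 3531 in HPLM (log2 ratio -0.37 ± 0.03, adjusted p 1.46e-15 in the authors' deposited table). COX4I2 (chromosome 20, 31637888 to 31645006) had 36.1, 16.3 and 34.2 normalised reads in EMEM/F12 and 7.60, 4.60 and 2.68 in HPLM, from 35, 14 and 33 reads and from 8, 5 and 3 reads. Its log2 ratio was -2.54 ± 0.52, with an adjusted p of 3.22e-05 in the authors' deposited table, and no HPLM library reached the lowest EMEM/F12 library. COX4I2 was 0.357% to 0.782% of COX4I1 in EMEM/F12 and 0.0759% to 0.208% in HPLM, so COX4I1 supplied nearly all subunit 4 reads in both media.

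The other subunits of complex IV that fell were COX7C (-0.40 ± 0.04), COX6C (-0.40 ± 0.03), COX5A (-0.38 ± 0.04), COX6B1 (-0.37 ± 0.04) and COX7B (-0.20 ± 0.05), all supernumerary subunits around the mitochondrially encoded core. COX7B did not pass without library 1 of EMEM/F12 or library 1 of HPLM (-0.17 in both). COX6C has 17 named pseudogenes in the annotation. COX5B, the zinc-binding subunit, was at -0.03 ± 0.01 and did not pass. NDUFA4, a complex IV subunit outside the name pattern and named here for that role, fell by 0.18 on the log2 scale.

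Against this direction, COX6A1 and COX8A rose. COX6A1, the ubiquitous form of subunit 6A, had 3246, 3222 and 3077 normalised reads in EMEM/F12 and 3932, 3791 and 3886 in HPLM, a log2 ratio of 0.28 ± 0.03 with an adjusted p of 6.02e-09 in the authors' deposited table. All HPLM libraries lay above all EMEM/F12 libraries. COX8A, the ubiquitous form of subunit 8, had 1328, 1311 and 1295 reads and then 1524, 1424 and 1531 (0.19 ± 0.03), again without overlap. COX7A2, the ubiquitous form of subunit 7A, had 1345, 1382 and 1412 reads and then 1486, 1477 and 1464 (0.10 ± 0.02). Its libraries did not overlap, but it did not pass in the authors' deposited table and did pass with edgeR (0.13). Set against a subunit that fell, COX6A1 and COX7A2 differed in ratio between the media in every library, which restates the changes above. COX6A1 reads were 363%, 376% and 359% of COX6C reads in EMEM/F12 and 601%, 583% and 576% in HPLM. COX7A2 reads were 44.2% to 49.6% of COX7C reads in EMEM/F12 and 65.0% to 68.2% in HPLM.

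COX7A2L, which resembles COX7A2 and joins complexes III and IV into a supercomplex, rose with the 2 subunits. It had 1700, 1612 and 1716 normalised reads in EMEM/F12 and 2094, 1998 and 2005 in HPLM, with no overlap and a log2 ratio of 0.28 ± 0.04 (adjusted p 3.19e-06 in the authors' deposited table). COX7A2L was 117% to 126% of COX7A2 in EMEM/F12 and 135% to 141% in HPLM.

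Among the complex IV assembly factors, COX10, which makes heme O on the way to the heme A of the enzyme, rose most of all 62 members. COX10 (chromosome 17, 14069496 to 14208677) had 339, 358 and 331 normalised reads in EMEM/F12 and 485, 454 and 490 in HPLM, a log2 ratio of 0.47 ± 0.05 with an adjusted p of 1.08e-05 in the authors' deposited table. All HPLM libraries were higher by a wide margin. COX15, which acts on heme O in the next step, did not pass (-0.10 ± 0.05), and COX10 was 34.2% to 38.9% of COX15 in EMEM/F12 and 51.3% to 56.0% in HPLM. The line of COX10-AS1, which shares no exon bases with COX10 in the annotation, rose from 92.0 ± 4.27 to 162 ± 7.87 (SD, n = 3 libraries). COX14 and COX20, which handle newly made COX1 and COX2 protein, and COX19, a copper-linked factor, rose by 0.30 ± 0.05, 0.37 ± 0.04 and 0.30 ± 0.06. These 3 calls were not firm: COX14 did not pass without library 1 of EMEM/F12 (0.28) or of HPLM (0.29), COX19 (0.25 to 0.31) passed only when library 2 of EMEM/F12 was the one left out, and COX20 (0.34 to 0.39) only when library 1 of EMEM/F12 was. The number of assembly factors that rose was 4 with all libraries, 1 without library 1 of HPLM, and 2 without library 1 or 3 of EMEM/F12 or library 2 or 3 of HPLM.

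COX18, which moves the tail of COX2 across the inner membrane, had 344, 329 and 344 normalised reads in EMEM/F12 and 256, 285 and 286 in HPLM (log2 ratio -0.30 ± 0.06) and fell. It did not pass without library 1 of EMEM/F12 (-0.28) or of HPLM (-0.25). COX11, a copper donor to the COX1 core, fell (-0.28 ± 0.06). COX17, the copper chaperone, was at -0.08 ± 0.06 and did not pass. COX16 had 478 to 487 reads in EMEM/F12 and 478 to 490 in HPLM.

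**Figure D5:**
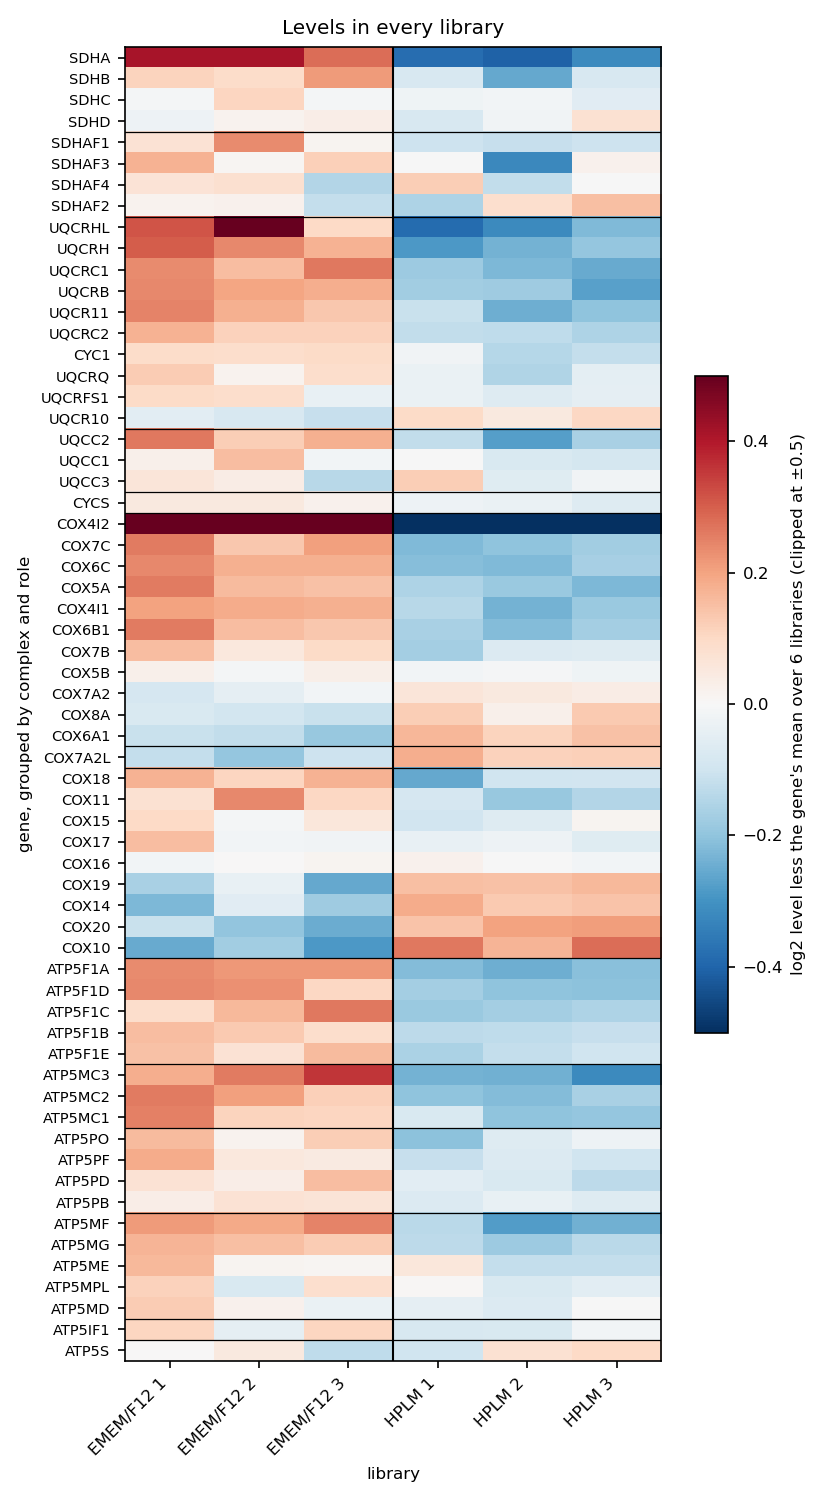
Log2 level of each member (rows, grouped by complex and role) in each library (columns), less the gene's mean over the 6 libraries, with red above and blue below the mean and colours limited at ±0.5. The 3 libraries of a medium share their colour for most structural subunits, and the rows of COX6A1, COX8A, COX7A2L, COX10, COX14, COX19 and COX20 show the opposite order.

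In the ATP synthase 13 of 19 members fell (68.4%) and none rose. Over all genes with a mean of at least 100, 35.5% fell and 32.4% rose. All 5 subunits of the catalytic F1 head and central stalk fell, as did all 3 genes of the membrane c ring and 3 of 4 peripheral stalk genes. Of the small membrane subunits 2 of 5 fell (40%), which was near the share of all genes. ATP5F1B encodes the catalytic beta subunit and had more normalised reads than any other member, at 19382, 19079 and 18502 in EMEM/F12 and 15903, 15950 and 16072 in HPLM (log2 ratio -0.25 ± 0.02, adjusted p 8.63e-12 in the authors' deposited table). The alpha subunit gene ATP5F1A had 7855, 7744 and 7733 reads and then 5728, 5626 and 5759 (-0.45 ± 0.01, adjusted p 4.60e-30 in the authors' deposited table). Neither gene had overlapping libraries, and ATP5F1A fell more: its level was 40.5% to 41.8% of ATP5F1B in EMEM/F12 and 35.3% to 36.0% in HPLM. ATP5F1D (-0.38 ± 0.05), ATP5F1C (-0.34 ± 0.05) and ATP5F1E (-0.25 ± 0.03), of the central stalk, fell as well.

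The c ring protein is encoded by 3 genes that make the same mature protein with different import signals. ATP5MC3 (chromosome 2, 175176258 to 175184607) had 1689, 1783 and 1910 normalised reads in EMEM/F12 and 1266, 1260 and 1194 in HPLM, a log2 ratio of -0.53 ± 0.06 with an adjusted p of 1.11e-15 in the authors' deposited table. ATP5MC2 had 3582, 3450 and 3251 reads and then 2604, 2576 and 2672 (-0.39 ± 0.04). ATP5MC1 had 1623, 1473 and 1472 reads and then 1294, 1188 and 1194 (-0.31 ± 0.06). All 3 genes were lower in every HPLM library, and the libraries of the media overlapped in each ratio between them. ATP5MC2 supplied 49.0% to 52.0% of c ring reads in EMEM/F12 and 50.4% to 52.8% in HPLM, and ATP5MC3 was 104% to 130% of ATP5MC1 in EMEM/F12 and 97.8% to 106% in HPLM.

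Among peripheral stalk genes, which hold the head still, ATP5PF had 1324, 1206 and 1201 normalised reads in EMEM/F12 and 1075, 1109 and 1086 in HPLM (log2 ratio -0.19 ± 0.05) and fell, together with ATP5PD (-0.17 ± 0.04) and ATP5PB (-0.11 ± 0.02). Each of these 3 calls was lost when some single library was left out: ATP5PF without library 1 of EMEM/F12 (-0.14), ATP5PD without library 3 of HPLM (-0.15), and ATP5PB without library 1 (-0.12) or 2 (-0.10) of EMEM/F12 or library 1 or 3 of HPLM (-0.11 in both). ATP5PO, at -0.20 ± 0.07, had an adjusted p of 0.0570 in the authors' deposited table and passed with edgeR (-0.17). Of the small membrane subunits, ATP5MF had 2006, 1976 and 2056 reads and then 1576, 1426 and 1465 (-0.43 ± 0.05), and ATP5MG fell too (-0.30 ± 0.02). ATP5MF shares exon bases with PTCD1 and with the read-through gene ATP5MF-PTCD1. ATP5ME (-0.12 ± 0.08), ATP5MPL (-0.08 ± 0.06) and ATP5MD (-0.08 ± 0.05) did not pass, and their libraries overlapped.

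ATP5IF1, the inhibitor that blocks the synthase from running backwards as an ATPase, had 821, 739 and 821 normalised reads in EMEM/F12 and 720, 722 and 755 in HPLM, with overlapping libraries. Its log2 ratio was -0.12 ± 0.05 and did not pass, and its level was 3.87% to 4.44% of ATP5F1B in EMEM/F12 and 4.53% to 4.69% in HPLM. ATP5S, a factor linked to the synthase by name rather than a core subunit, had 361, 372 and 330 reads and then 335, 379 and 385 (0.05 ± 0.08), also with overlap.

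The summed level of the 62 members was 111962 to 115538 normalised reads in EMEM/F12 and 95189 to 96998 in HPLM, a change of -15.3%. The percent change of the sum was -25.4% for complex II, -18.1% for complex V, -17.2% for complex III and -8.61% for complex IV. It was -17.4% for the structural subunits and -4.51% for the assembly factors, and these sums carry no test. The complex II sum leaned on SDHA, its largest member, with a mean of 4816 in EMEM/F12 and 2892 in HPLM. Only 2 of the 8 complex II members fell (25%), against 35.5% of all genes with a mean of at least 100. By the median log2 fold change in the authors' deposited table the order differed: -0.27 for complex III, -0.25 for complex V, -0.13 for complex II and -0.09 for complex IV. The calls differed with the level. Of the 34 members with a mean of at least 1000, 25 fell and 3 rose, and of the 28 below that mean 8 fell and 4 rose, while in all 4338 genes with a mean of at least 1000 40.5% fell and 36.5% rose. In all 11666 genes below that mean 24.5% fell and 23.2% rose, so the 28.6% of members below it that fell was near the share of all genes. Across the 61 members with a mean of at least 100 the correlation of log level with log2 fold change was r = -0.36 (Spearman's rho -0.42), a description across genes that share their libraries, against r = -0.01 across all 11055 genes. Per kilobase of the longest annotated transcript, ATP5F1B was also highest, with 10325 normalised reads per kilobase in EMEM/F12 and 8687 in HPLM, followed by COX6A1 with 4148 and 5045. ATP5S was lowest in EMEM/F12, with 34.7 and 35.9, and COX4I2 in HPLM. These lengths are uncertain: SDHC has a longest transcript of 13566 bases, and with the principal transcript in place of the longest the gene after ATP5F1B was ATP5MF, with 6599 in EMEM/F12.

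Reads of other genes may be counted in many of the members. In the annotation, 32 have at least 1 named pseudogene and 33 share exon bases with another gene. Strand is not kept by the preparation kit, so over shared bases the reads of opposite-strand neighbours cannot be told apart from the member's own. For pseudogene copies this depends on their sequence and on how reads matching several places were counted, which is not given.

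Related genes outside the name pattern were read from lists of known factors. Of 44 listed genes, mostly assembly factors and subunits of complexes II to V, 17 fell (38.6%), 5 rose (11.4%) and 22 did not pass. Over all genes with a mean of at least 100, 35.5% fell and 32.4% rose, so the share that fell was near that of all genes. The listed genes had a median log2 fold change of -0.18 in the authors' deposited table. Among them PHB, PHB2, STOML2, AFG3L2 and SPG7 are general inner membrane factors. All of these are among the 17 that fell, and they were named after their values were seen. NUBPL, a complex I factor, did not pass. CMC2, a factor of complex IV assembly, fell most (402, 417 and 414 normalised reads, then 223, 226 and 211, log2 ratio -0.90 ± 0.03). APOPT1, known as COA8 and needed for complex IV stability, rose most (172, 199 and 171, then 234, 259 and 237, 0.43 ± 0.09). The other 4 that rose, named after their values were seen, were LYRM7 and BCS1L, which place the Rieske protein into complex III, LRPPRC, which stabilises mitochondrial messenger RNA, and TMEM242. The mitochondrially encoded subunits of complexes III to V, whose transcripts are made inside the organelle, were divided: MT-CO1 (-0.27 ± 0.04), MT-CYB (-0.24 ± 0.06) and MT-CO2 (-0.25 ± 0.05) fell, MT-CO3 rose (0.15 ± 0.04), and MT-ATP6 and MT-ATP8 did not pass.

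Of 19 regulators of respiratory chain gene expression, 9 fell (47.4%) and 6 rose (31.6%), against 28.8% and 26.8% of all genes tested and 35.5% and 32.4% of genes with a mean of at least 100. The coactivator PPARGC1A rose most, from 197, 230 and 213 normalised reads in EMEM/F12 to 474, 525 and 481 in HPLM (log2 ratio 1.21 ± 0.08). MYCN fell most, from 77365, 75526 and 64577 reads to 28576, 29336 and 30344 (-1.30 ± 0.08). Both genes separated the media completely. PPARGC1B (-1.05 ± 0.09) and PPRC1 (-0.40 ± 0.04), relatives of PPARGC1A, fell. Of the other factors whose motifs were searched, NRF1 fell (-0.28 ± 0.06). GABPA (0.25 ± 0.05), YY1 (0.25 ± 0.04) and MYC (0.68 ± 0.24) rose. All of these relatives and factors were named after their values were seen. Of the transporters and kinases that pass ATP and phosphate between mitochondria and cytosol, 7 of 10 fell (70%) and none rose. The shares over genes with a mean of at least 100 were again 35.5% and 32.4%. VDAC1, the main outer membrane channel, fell most in that list (7750, 7770 and 7584 reads, then 4446, 4488 and 4434, -0.79 ± 0.01). Of 5 measured hypoxia-linked or paralogue-switch genes, 3 rose (60%) and 1 fell (20%), against 32.4% and 35.5% of genes with a mean of at least 100. NDUFA4L2, a paralogue of the subunit gene NDUFA4 known for its rise in low oxygen, went from 61.8, 43.0 and 43.6 reads to 266, 295 and 318 (2.57 ± 0.20). PDK1, an inhibitor of pyruvate entry, fell by 0.41 on the log2 scale, while LONP1 (0.35) and BNIP3L (0.52), named after their values were seen, rose. These lists describe the same libraries and carry no test of their own.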

How the data were processed

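RNA with poly(A) tails from BE(2)-C cells in 2 media was made into TruSeq version 2 libraries, per the labels' protocols, and this kit keeps no strand. The submitters' processing notes name STAR 2.5.2b, Trimmomatic 0.36, DESeq2, Subread 1.5.2 and the build GRCh38. Not given in the sources used here are the annotation, the strand setting and the filters. The authors deposited 1 table. Its 6 library columns are a normalised signal: the deposited values are read counts that the authors divided by a library's factor. Every value (100%) was a whole multiple of 1 read within 0.01 reads. Per the file headers, the log2 fold changes and the raw and adjusted p-values come from the authors. The 46 spike-in lines were kept out of the gene counts.

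Means, SDs and log2 ratios with SE were calculated in Python 3.11.15 (pandas 2.3.3, numpy 2.4.6, scipy 1.17.1), and matplotlib 3.10.9 drew the figures. The log2 ratios of means differed from the authors' log2 fold changes of the members by at most 0.014. As alternatives, edgeR 4.0.16 (quasi-likelihood) and DESeq2 1.42.0 in R 4.3.3 were run on recovered reads and tested on simulated data. Adjusted p-values cover all lines of the table. GENCODE release 29 (15955 of 16005 genes matched by identifier) gave coordinates and lengths, and RefSeq the promoter windows.

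The members and gene lists were chosen with earlier results of these data known. By the rule for named genes, library values are given for called members with an absolute log2 fold change of at least 0.5, for the largest rise and fall in each role list, for members far below their complex per length, and for core subunits listed without regard to change. Alternatives were other thresholds, scalings, tests, lengths, motif strands and leaving out each library.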

Additional observations from a re-analysis of the deposited data

How the results depend on the processing

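The 40 called members kept their direction under every alternative in which they were tested; COX4I2 was not tested where a mean of at least 100 was required. Scaling, filter and test moved the members' median from -0.19 to -0.16 with edgeR, with edgeR without a filter and with edgeR with a replicate block, and to -0.23 with edgeR scaled on spike-ins. The median over all genes moved as well, from 0.01 to 0.04 in those edgeR fits and to -0.03 with spike-ins. The members' median less that of all genes was -0.20 in each of these settings. The edgeR test on recovered reads called 5259 genes higher and 4999 lower, and 9 members higher and 35 lower. With a further limit of 0.5 on the absolute log2 fold change, 0 members rose and 4 fell (structural subunits 0 and 4, assembly factors 0 and 0, complex IV 0 and 1, and 1 that fell in each of complexes II, III and V). Of all genes tested, 14.5% rose and 16.2% fell with that limit. At an adjusted p under 0.01, 4 members rose (1 assembly factor, 3 of complex IV), while 22.5% of all genes tested rose. At an adjusted p under 0.1, 1 complex III member rose, as it did with edgeR, with edgeR without a filter, with edgeR scaled without mitochondrial and ribosomal protein genes and with the replicate block. Structural subunits that rose numbered 4 with edgeR, without its filter and with the replicate block, and 5 assembly factors fell with scaling on spike-ins. With 1 library left out, 4 to 6 members rose and 28 to 37 fell, with 1 to 3 assembly factors that rose and 2 to 5 that fell and 3 to 5 complex IV members that rose. In these fits 23.4% to 29.4% of all genes rose and 25.1% to 30.4% fell. The library numbers did not pair the libraries: same-numbered libraries had correlated deviations of -0.05, -0.13 and -0.20, no library correlated best with its own number, and the block moved the members that fell to 32.

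Reversals of sign were limited to 6 members near 0 that did not pass. With edgeR, without its filter and with the block, SDHAF4 was at 0.0280, 0.0279 and 0.0288, SDHD at 0.0162, 0.0161 and 0.0149 and COX5B at 0.0010, 0.00091 and 0.0013. UQCC3 was at -0.0103 with scaling on spike-ins, and COX16 at -0.0068 when centred on the median gene, -0.039 with scaling on spike-ins and -0.0027 when scaled without mitochondrial and ribosomal protein genes. Without 1 library, the values ran from -0.0041 to 0.14 for SDHAF2, -0.0753 to 0.0549 for SDHAF4, -0.0570 to 0.0210 for SDHD, -0.0345 to 0.0720 for UQCC3 and -0.0098 to 0.0090 for COX16. On the gene strand only, 18.4% of member windows held the NRF1 motif and 20.4% the ETS motif, against 4.05% and 5.98% of all windows. By exon union length ATP5F1B had 8177 normalised reads per kilobase in EMEM/F12. Depth limits COX4I2, with 3 to 8 reads per HPLM library.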
